A study of Mus musculus with 3 samples.

Results

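The genes described here are 10 genes of the amino acid arm of the integrated stress response: the transcription factor gene Atf4 and 9 genes known as its targets or partners, Atf5, Ddit3, Trib3, Chac1, Sesn2, Asns, Psat1, Phgdh and Slc7a11. They, and the lists set beside them below, were chosen by symbol with earlier results of these data known. All 10 were found among 24006 gene symbols, with reads of all transcripts of a symbol added up in each library. The libraries hold polyadenylated RNA of male mouse embryonic stem cells (ESCs), cultured cells from the early embryo that can form all tissues of the body. One clone carried the genotype DAXX-/- (DAXX KO), another ATRX-/- (ATRX KO) and the third was wildtype. All 3 shared the C57BL/6x129sV background and were isogenic, and the knockouts were made by CRISPR targeting. Every clone was grown in serum with leukaemia inhibitory factor and was passaged off irradiated feeder cells onto gelatin before RNA was taken. Each genotype is 1 clone and 1 library, so a difference between genotypes cannot be told apart from a difference between clones or cultures, none has a replicate check, and no p-value is given.

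In the integrated stress response, kinases that sense uncharged tRNA, haem shortage, viral RNA or unfolded protein in the endoplasmic reticulum (ER) phosphorylate the translation factor eIF2. General protein synthesis then drops while the Atf4 messenger is translated more, because upstream reading frames in its leader no longer block it. ATF4 protein, often paired with C/EBP family factors, switches on genes for making, importing and charging amino acids, and later genes that dampen the response. The RNA level of Atf4 therefore reflects only part of what sets the amount of its protein. The knockouts targeted the genes of ATRX, a chromatin remodelling enzyme, and of its partner DAXX, a chaperone for histones. ATRX and DAXX deposit the histone variant H3.3. Their protein levels are not measured by RNA.

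The ATRX KO library held less RNA of most of these genes than either other library, while the DAXX KO library stood close to Wildtype or above it. Reads of the 10 genes together numbered 21340 in the DAXX KO, 18688 in the ATRX KO and 26636 in Wildtype, which was 0.190%, 0.134% and 0.191% of the reads on transcripts. Psat1, Asns, Phgdh and Atf4 held 80.6%, 81.6% and 82.8% of these reads, so the sums mostly describe those genes. Of the 10 genes, 2 fell in the ATRX KO against Wildtype, Chac1 and Trib3, and none rose. A gene was counted as risen or fallen where its fold, with all of the 95% interval around it, was larger than 2-fold. The interval (Clopper-Pearson, from the 2 counts) covers counting error only. By the same rule 1.84% of 13230 genes tested passed in that comparison, 1.15% lower and 0.695% higher. In the DAXX KO against Wildtype none of the 10 passed in either direction, where 2.04% of 13151 genes tested passed, 1.55% lower and 0.487% higher. In the ATRX KO against the DAXX KO, 3 fell, Chac1, Trib3 and Atf5, where 1.13% of 12991 genes passed, 0.362% lower and 0.77% higher. The 3 comparisons reuse the same libraries and are not independent of one another. All 10 genes passed the filter of at least 1 CPM, the count scaled to library size, in every comparison. In bulk RNA, fewer cells of a type and less RNA per cell cannot be told apart.

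**Figure D1:**
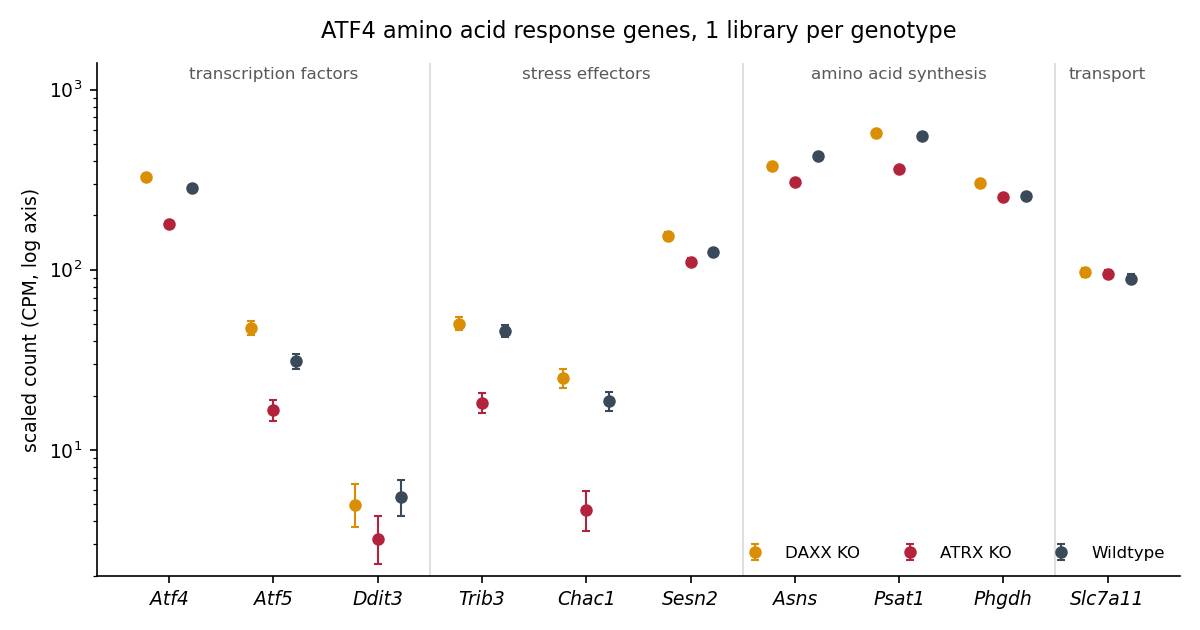
Scaled count (CPM, log axis) of each of the 10 genes in the DAXX KO, ATRX KO and Wildtype libraries, 1 point per library, with exact Poisson 95% intervals that cover counting error. Chac1 lies at 4.62 CPM in the ATRX KO and 18.7 CPM in Wildtype, with the DAXX KO above both, whereas the 3 points of Slc7a11 lie close together.

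Of the transcription factors, Atf4, the central factor of the response, had 3570 reads in the DAXX KO, 2477 in the ATRX KO and 4131 in Wildtype, or 327, 179 and 285 CPM. Its level in the ATRX KO was 62.9% of Wildtype (59.8% to 66.1%), a log2 fold of -0.67 (-0.74 to -0.60), and it was 54.7% of the DAXX KO level (52.0% to 57.6%). In the DAXX KO it stood slightly above Wildtype, at a log2 fold of 0.20 (0.13 to 0.26). The ATRX KO was thus lowest in Atf4 by more than counting error but within 2-fold. Atf5, a related factor whose messenger is also translated under eIF2 phosphorylation, had 518 reads in the DAXX KO, 230 in the ATRX KO and 450 in Wildtype (47.4, 16.6 and 31.0 CPM). Its log2 fold in the ATRX KO was -0.90 (-1.14 to -0.67) against Wildtype and -1.51 (-1.74 to -1.29) against the DAXX KO, the second past the rule. The DAXX KO lay above Wildtype by 0.61 (0.43 to 0.80) on the log2 scale, the highest of the 10 genes in that comparison. Ddit3, which encodes the proapoptotic factor CHOP, had the fewest reads of the 10 in each library, 54 in the DAXX KO, 44 in the ATRX KO and 79 in Wildtype. Its log2 fold was -0.78 (-1.34 to -0.23) in the ATRX KO and -0.14 (-0.67 to 0.38) in the DAXX KO against Wildtype. With so few reads the interval of the ATRX KO reaches past 2-fold. Ddit3 is also uncertain because 68 bases of its exons overlap those of Mars on the opposite strand, Mars had 2928 to 3867 reads, and whether counting used strand is not stated in the labels. Exons of Atf5 overlap those of Nup62 and Il4i1 on the opposite strand over 82 bases in the same way.

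Among the stress effectors, Chac1, an enzyme that breaks down glutathione, had the largest change of the 10 genes. It had 273 reads in the DAXX KO, 64 in the ATRX KO and 271 in Wildtype. The ATRX KO level was 24.8% of Wildtype (18.5% to 32.6%), a log2 fold of -2.01 (-2.43 to -1.62), and 18.5% of the DAXX KO (13.9% to 24.4%), a log2 fold of -2.44 (-2.85 to -2.04). Between the 2 knockouts its log2 fold ranked 19 from the lowest of 12991 genes. Trib3, a pseudokinase that is induced by ATF4 and restrains it, had 548 reads in the DAXX KO, 253 in the ATRX KO and 666 in Wildtype (50.2, 18.3 and 45.9 CPM). It fell in the ATRX KO to 39.8% of Wildtype (34.3% to 46.1%), a log2 fold of -1.33 (-1.54 to -1.12), and to 36.4% of the DAXX KO (31.2% to 42.3%). In the DAXX KO, Chac1 and Trib3 lay at log2 folds of 0.42 (0.17 to 0.67) and 0.13 (-0.04 to 0.29) against Wildtype. Sesn2, a leucine sensor that holds back mTORC1 and is a target of p53 as well as of ATF4, had the smallest difference of these effectors in the ATRX KO, though not in the DAXX KO. It had 1681 reads in the DAXX KO, 1537 in the ATRX KO and 1816 in Wildtype, and its ATRX KO level was 88.7% of Wildtype, a log2 fold of -0.17 (-0.27 to -0.07), with 0.30 (0.20 to 0.40) in the DAXX KO. The genes are both on chromosome 2, Chac1 at chr2:119351229-119354381 (plus strand) and Trib3 at chr2:152337422-152344032 (minus strand) in GENCODE M21 (GRCm38). Both are protein-coding genes with 1 transcript in the tables, so no choice between transcripts enters their counts.

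The stretches before the starts of 2 members that fell, Chac1 and Trib3, and of 2 that did not pass the rule, Asns and Slc7a11, are given here because ATF4 with a C/EBP partner is known to bind an element of the form TGATGNAA. Capitals mark each match to these letters on either strand, in the 250 bases before the start, 5′ to 3′ on the strand of the gene (RefSeq, GRCm38.p6). The windows are chr2:119350992-119351241 on the plus strand for Chac1, and on the minus strand chr2:152344061-152344310 for Trib3, chr6:7693210-7693459 for Asns and chr3:50443614-50443863 for Slc7a11.
Chac1: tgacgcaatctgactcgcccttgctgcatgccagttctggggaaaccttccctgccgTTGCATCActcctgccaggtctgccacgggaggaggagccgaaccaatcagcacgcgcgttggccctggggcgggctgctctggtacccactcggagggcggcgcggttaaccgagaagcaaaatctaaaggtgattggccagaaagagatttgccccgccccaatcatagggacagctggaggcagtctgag
Trib3: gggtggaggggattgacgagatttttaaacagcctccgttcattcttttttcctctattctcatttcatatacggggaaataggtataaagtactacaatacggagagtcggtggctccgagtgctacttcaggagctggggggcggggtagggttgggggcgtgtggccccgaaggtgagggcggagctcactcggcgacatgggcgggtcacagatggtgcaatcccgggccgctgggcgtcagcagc
Asns: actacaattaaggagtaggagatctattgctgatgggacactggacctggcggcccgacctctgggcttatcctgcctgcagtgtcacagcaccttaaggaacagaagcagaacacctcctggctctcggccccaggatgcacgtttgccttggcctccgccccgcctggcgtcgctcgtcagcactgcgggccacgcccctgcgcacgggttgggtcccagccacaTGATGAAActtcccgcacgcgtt
Slc7a11: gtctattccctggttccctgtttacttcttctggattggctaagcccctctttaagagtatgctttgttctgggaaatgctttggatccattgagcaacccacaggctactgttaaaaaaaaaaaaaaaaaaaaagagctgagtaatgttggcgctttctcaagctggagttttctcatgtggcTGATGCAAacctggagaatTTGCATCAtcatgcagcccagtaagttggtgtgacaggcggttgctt

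The window of Chac1 holds 1 match, whose first printed letter lies 193 bases before the start, in the opposite orientation and in the form TTGCATCA. The window of Asns holds 1, TGATGAAA at 23 bases. Slc7a11 holds 2, in both orientations, at 66 and 47 bases. Trib3 and the other 6 members had no match in this window. These starts are those of RefSeq, which can differ from GENCODE M21. There Asns starts at chr6:7693254, inside its window, so its match lies within the GENCODE gene. The window of Chac1 runs past its GENCODE start at chr2:119351229. In all, 3 of the 12 windows listed for the 10 genes held TGATGNAA (25%), against 3.45% of 32851 windows of the same length over all genes. Of the lists set beside them, TGATGNAA was in 6 of 16 windows of the other stress factors and signals, 2 of 11 of the serine and one-carbon enzymes and 3 of 12 of the tRNA synthetases. It was in 0 of 11 windows each of the amino acid transporters and the eIF2 kinase list, 0 of 17 of the ER list, 0 of 9 of the NRF2 list, 0 of 6 of the mitochondrial list and 0 of 5 of the paralogues. Some listed genes had no window. The windows covered 7 of the 11 transporters, 10 of the 14 genes of the eIF2 list and 12 of the 20 synthetases. They covered 12 of the 13 other stress factors, 11 of the 13 serine and one-carbon enzymes and 17 of the 20 ER genes. For the NRF2, mitochondrial and paralogue lists it was 7 of 10, 5 of 6 and 4 of 5. The narrower form TGATGCAA, a subset of the TGATGNAA matches, was in 2 of the 12 windows of the 10 genes and in 0.791% of all. A match to these letters is a description of the sequence and was not read as a binding site. In the ATRX KO against Wildtype, Chac1 and Asns, with 1 match each, had log2 folds of -2.01 and -0.47. Slc7a11, with 2 matches, lay at 0.08, and Trib3, with none, at -1.33. Whether matches and folds go together was not tested.

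Of the genes for making and importing amino acids, Psat1 and Asns were lower in the ATRX KO by smaller factors, and Phgdh and Slc7a11 stood near Wildtype. Psat1, the aminotransferase of serine synthesis, had 6235 reads in the DAXX KO, 5014 in the ATRX KO and 8006 in Wildtype. Its ATRX KO level was 65.7% of Wildtype (63.4% to 68.0%), a log2 fold of -0.61 (-0.66 to -0.56), and its DAXX KO level 104% (100.1% to 107%). Asns, asparagine synthetase, had 4100, 4267 and 6177 reads, and its log2 fold against Wildtype was -0.18 (-0.24 to -0.12) in the DAXX KO and -0.47 (-0.52 to -0.41) in the ATRX KO. It was the member that lay below Wildtype by more than counting error in both knockouts. Phgdh, the first enzyme of the same serine pathway as Psat1, had 3304 reads in the DAXX KO, 3494 in the ATRX KO and 3744 in Wildtype. It stood at a log2 fold of 0.23 (0.16 to 0.30) in the DAXX KO and -0.03 (-0.10 to 0.04) in the ATRX KO, and in the ATRX KO its interval did not overlap that of Psat1, which acts on its product. Slc7a11, the cystine importer, which is a target of NRF2 as well, had 1057, 1308 and 1296 reads, and log2 folds against Wildtype of 0.12 (-0.00 to 0.23) and 0.08 (-0.03 to 0.19). Its transcript of 9223 bases holds 373 bases that match the tubulin transcripts Tuba1a, Tuba1b and Tuba1c at 95.4% to 96.2% identity, so some of its reads could be tubulin reads.

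**Figure D2:**
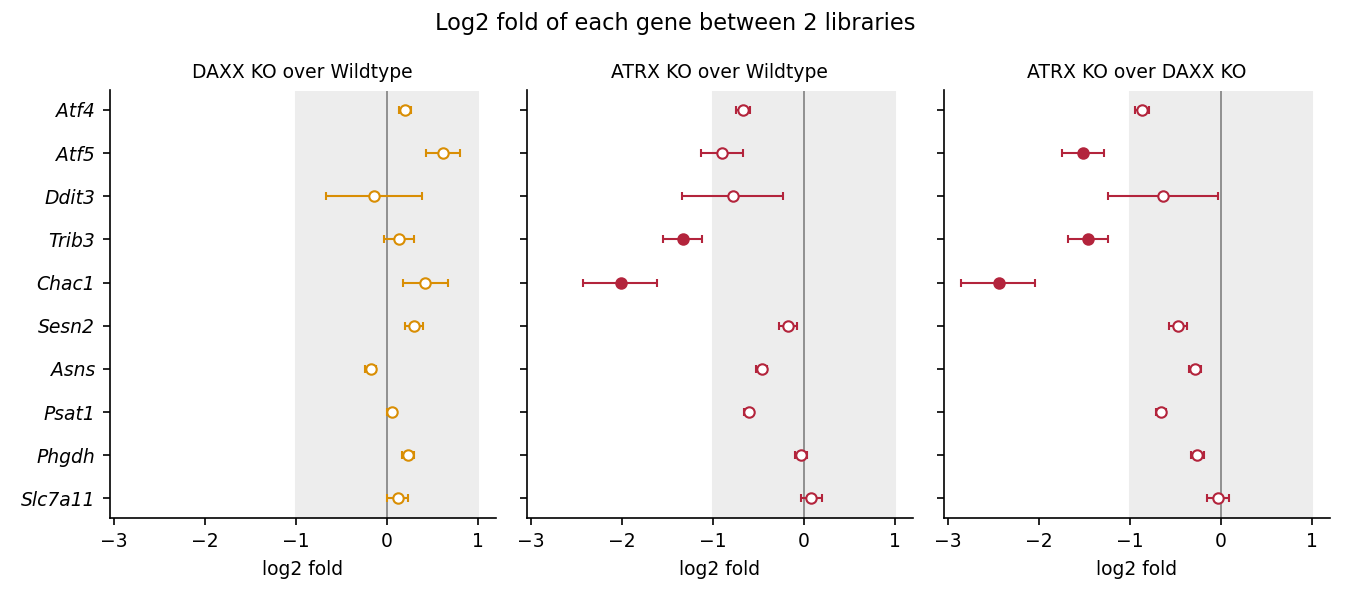
Log2 fold of the 10 genes in the DAXX KO over Wildtype, the ATRX KO over Wildtype and the ATRX KO over the DAXX KO, with 95% counting intervals. Filled points lie past the 2-fold rule and the grey band marks folds within 2-fold. In the DAXX KO panel all points are open, while Chac1 and Trib3 lie left of the band in both ATRX KO panels.

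Across the 10 genes, the whole interval lay below 0 in the ATRX KO against Wildtype for 8 (all but Phgdh and Slc7a11) and above 0 for none. That held for 21.3% of all genes tested below 0 and for 25.4% above 0, and, since a narrow interval needs many reads, for 27.7% and 44.8% of the 2265 genes with a mean of at least 100 CPM. Under total-count scaling the interval of Phgdh also lay below 0 (-0.17 to -0.03), and on the most abundant transcript alone that of Ddit3 spanned 0 (-1.29 to 0.03). In the DAXX KO against Wildtype the interval lay above 0 for 6 members and below 0 for 1, Asns. The interval of Psat1 spanned 0 with total-count scaling, with DESeq2 size factors and with the most abundant transcript, and that of Slc7a11 lay above 0 with thinned counts (0.03 to 0.28). The shares of all genes were 23.7% above 0 and 17.1% below 0, and at 100 CPM or more 55.2% and 14%. Between the knockouts it lay below 0 for 9 of the 10, and above 0 for none, with Ddit3 spanning 0 on its most abundant transcript (-1.23 to 0.21). The shares of all genes were 20.9% below 0 and 20.7% above 0, and at 100 CPM or more 42.5% and 22.6%. The median log2 fold of the 10 was 0.16 in the DAXX KO and -0.64 in the ATRX KO against Wildtype, beside 0.03 and 0.02 over the 12759 genes whose mean reached 1 CPM. Under total-count scaling the DAXX KO median of the 10 was 0.07, beside -0.07 over all genes. In the ATRX KO against the DAXX KO it was -0.64, beside 0.00.

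**Figure D3:**
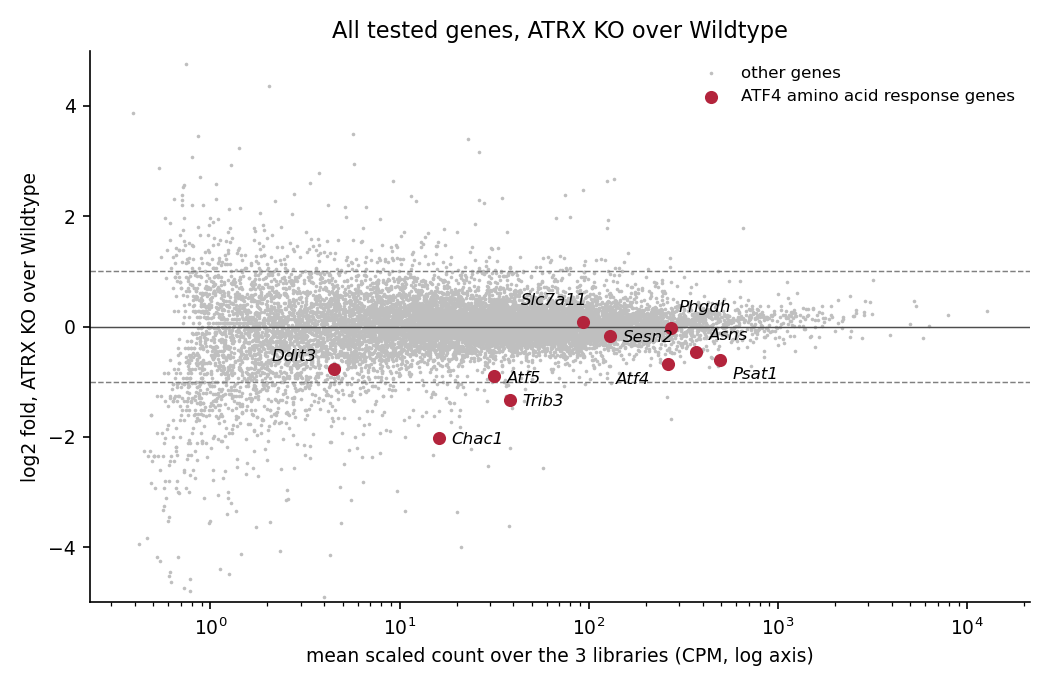
Log2 fold of the ATRX KO over Wildtype against the mean scaled count over the 3 libraries (CPM, log axis), with the 10 ATF4 response genes in red and dashed lines at 2-fold. There is 1 point per tested gene with reads in both libraries. Tested genes without reads in the ATRX KO or in Wildtype have no finite fold and are not drawn. Another 6 genes with a finite fold lie outside the range drawn. Chac1 at -2.01 and Trib3 at -1.33 lie below the dashed line, and the 10 genes cover levels between 4.52 and 495 CPM.

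Levels per length, computed from the counts on the TPM scale, which divides reads by transcript length, put Psat1 first in Wildtype at 447 TPM, then Asns at 422, Atf4 at 328 and Phgdh at 271 TPM. Ddit3 was last at 14.1 TPM, with Slc7a11 at 19.3 and Chac1 at 22.7 TPM just above it. The DAXX KO had the same 4 genes on top, with Psat1 at 430 TPM and Atf4 at 350 TPM. In the ATRX KO, Asns led at 284 TPM before Psat1 at 273 TPM, and Chac1 was last at 5.22 TPM, under Ddit3 at 7.39 TPM. The order of neighbours within a library has no replicate spread to be judged by.

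For Psat1, Asns, Ddit3 and Atf5, which each had reads on 2 transcripts in every library, both transcripts had log2 folds below 0 in the ATRX KO against Wildtype. A second transcript of Slc7a11 had 0 reads in both knockouts and 2 in Wildtype, too few to compare. The 2 transcripts of Psat1 had log2 folds of -0.61 and -0.60, and those of Asns -0.42 and -0.52. Those of Ddit3 lay at -0.62 (-1.29 to 0.04), an interval that spans 0, and -1.17 (-2.34 to -0.11). They had only 33 and 11 reads in the ATRX KO, against 53 and 26 in Wildtype. Atf5 had 142 and 88 reads in the ATRX KO, against 265 and 185 in Wildtype. The share of the symbol's reads on the longer Psat1 transcript was 53.8% in the DAXX KO, 53.5% in the ATRX KO and 53.6% in Wildtype. Reads that fit both transcripts of a gene cannot be assigned to one of them, so these pairs are not independent measurements.

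The genes that start or control the response had medians near that of all genes. Of 14 genes for the eIF2 kinases, their control and the factors they act on, none passed the 2-fold rule in any comparison, and their median log2 fold was 0.03 in the DAXX KO and 0.04 in the ATRX KO against Wildtype. Gcn1l1, the partner of the kinase that senses uncharged tRNA, had the most reads, with log2 folds of 0.07 (0.01 to 0.13) and -0.10 (-0.16 to -0.04). Ppp1r15b, a phosphatase subunit that reverses eIF2 phosphorylation, stood at 0.31 (0.24 to 0.39) in the DAXX KO and 0.06 (-0.01 to 0.13) in the ATRX KO. Added after their values were seen were the uncharged-tRNA kinase gene Eif2ak4 and Ppp1r15a, the other Ppp1r15 gene of the list. In the ATRX KO they lay at 0.28 (0.12 to 0.45) and 0.27 (0.11 to 0.44). Of the 14 genes, 3 had the whole interval above 0 in the ATRX KO and 3 below 0. Over all genes tested these shares were 25.4% and 21.3%. Phosphorylation itself is not measured by RNA.

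Of 14 other transcription factors and signals of the stress response, 13 were found and 12 tested, and 1 fell in the ATRX KO against Wildtype, Nupr1, a small chromatin-binding stress protein. Nupr1 had 253 reads in the DAXX KO, 124 in the ATRX KO and 339 in Wildtype, a log2 fold of -1.38 (-1.69 to -1.08) in the ATRX KO and -0.01 (-0.25 to 0.23) in the DAXX KO, and with thinned counts it was not past the rule (-1.33, -1.68 to -0.99). Stc2, a secreted glycoprotein, had 179, 124 and 304 reads and a log2 fold of -1.23 (-1.54 to -0.92) in the ATRX KO. Eif4ebp1, the most abundant of them, which restrains cap-dependent translation, lay at 0.33 (0.28 to 0.39) in the DAXX KO and 0.01 (-0.04 to 0.07) in the ATRX KO. The list median was 0.03 in the DAXX KO and -0.52 in the ATRX KO, and 7 of the 12 genes had the whole interval below 0 in the ATRX KO and 1 above it. Over all genes tested in the ATRX KO against Wildtype, 21.3% lay below 0 in this way and 25.4% above 0.

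**Figure D4:**
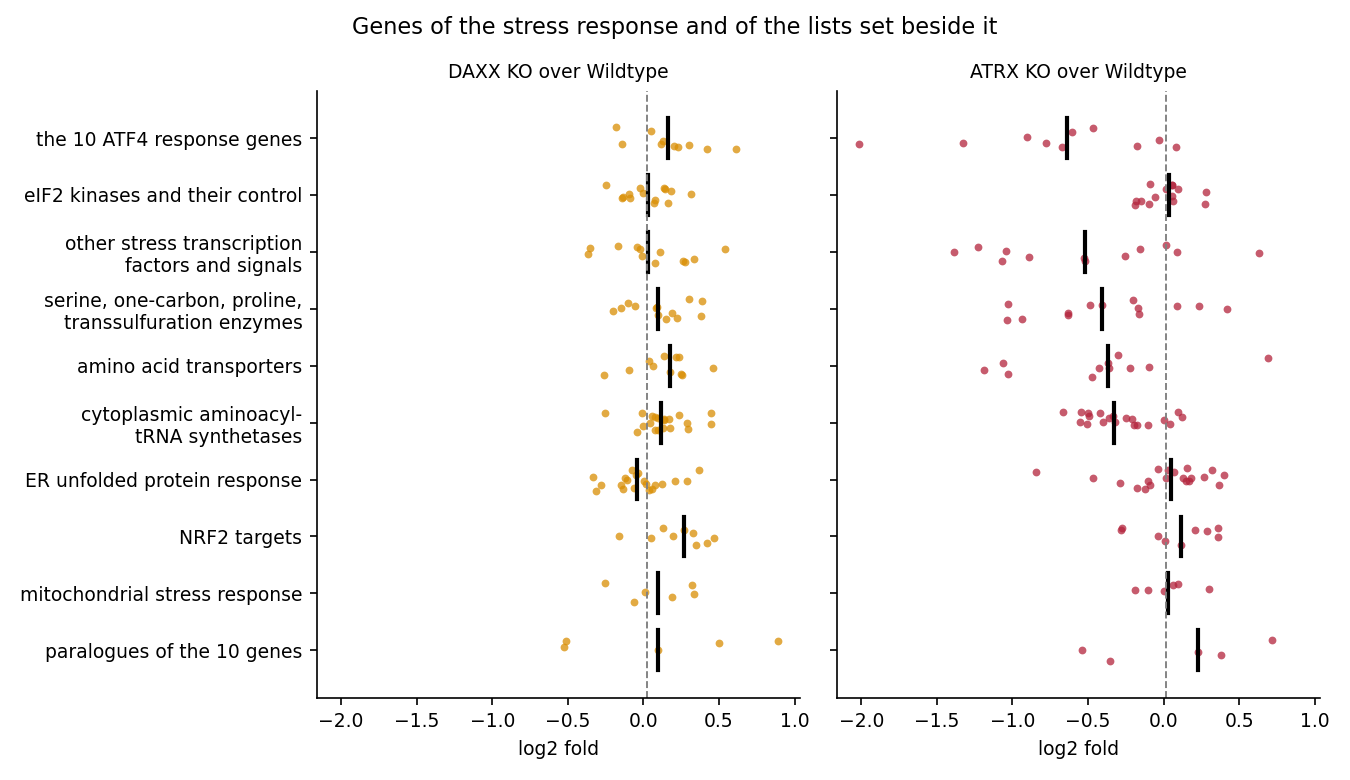
Log2 fold of every tested gene of the 10 ATF4 response genes and of 9 lists set beside them, in the DAXX KO over Wildtype (left) and the ATRX KO over Wildtype (right), with 1 point per gene, a black bar at the median of a list and a dashed line at the median of all genes. In the ATRX KO the medians of the stress factors, the serine and one-carbon enzymes, the transporters and the synthetases lie between -0.52 and -0.33, and those of the other lists between 0.03 and 0.23.

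In the lists of genes that make, import and charge amino acids, none passed the rule in the ATRX KO against Wildtype, and the list medians were below 0. Among 13 enzymes of serine, one-carbon, proline and transsulfuration metabolism, the median was 0.10 in the DAXX KO and -0.41 in the ATRX KO, and in the ATRX KO 10 of 13 had the whole interval below 0 and 2 above it. Those shares were 21.3% and 25.4% of all genes tested, and 27.7% and 44.8% of genes with a mean of at least 100 CPM. Gpt2, a mitochondrial alanine aminotransferase, had 1360 reads in the DAXX KO, 739 in the ATRX KO and 1585 in Wildtype. It fell in the ATRX KO against the DAXX KO, by 1.22 (-1.35 to -1.09) on the log2 scale, and stood at -1.03 (-1.16 to -0.91) against Wildtype. Mthfd2, the mitochondrial one-carbon enzyme, had 1582, 1088 and 2183 reads and a log2 fold of -0.94 (-1.04 to -0.83) in the ATRX KO, whereas its cytoplasmic relative Mthfd1, which had the most reads of the list, lay at 0.23 (0.18 to 0.28).

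Of 11 amino acid transporters, none passed the rule against Wildtype, and 9 had the whole interval below 0 in the ATRX KO and 1 above it, with medians of 0.17 in the DAXX KO and -0.37 in the ATRX KO. Slc1a4, a neutral amino acid transporter, had 548 reads in the DAXX KO, 279 in the ATRX KO and 612 in Wildtype. It fell against the DAXX KO, at a log2 fold of -1.32 (-1.53 to -1.11), and stood at -1.07 (-1.27 to -0.86) against Wildtype. On its most abundant transcript the fold between the knockouts, -1.10 (-1.40 to -0.81), was not past the rule. Slc7a3, an importer of cationic amino acids, had a log2 fold of -1.03 (-1.14 to -0.92) in the ATRX KO, and Slc7a5, the large neutral amino acid transporter with the most reads of the list, -0.43 (-0.49 to -0.37). Of 20 cytoplasmic aminoacyl-tRNA synthetases, which charge tRNAs with their amino acids, 16 had the whole interval below 0 in the ATRX KO and 2 above it, and none passed the rule. Their median was -0.33 in the ATRX KO and 0.12 in the DAXX KO, with a lowest value of -0.67 (-0.74 to -0.59) for the seryl enzyme Sars in the ATRX KO. Eprs, with the most reads, lay at -0.21 (-0.25 to -0.17). Beside the transporters and synthetases, 21.3% of all genes tested had the whole interval below 0 in the ATRX KO and 25.4% above it. At a mean of at least 100 CPM these shares were 27.7% and 44.8%. In the DAXX KO against Wildtype, 6 transporters and 13 synthetases had the whole interval above 0, and 2 and 1 had it below 0. Over all genes tested the shares above and below 0 were 23.7% and 17.1%, and at 100 CPM or more 55.2% and 14%.

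Neighbouring stress pathways had medians closer to that of all genes in the ATRX KO. The 20 genes of the ER unfolded protein response had medians of -0.04 in the DAXX KO and 0.05 in the ATRX KO, with none past the rule. The chaperone Hsp90b1, with the most reads, stood at 0.37 (0.33 to 0.41) in the ATRX KO, while Hyou1, an ER chaperone of the HSP70 family, lay at -0.84 (-0.94 to -0.74). Of the 10 NRF2 pathway genes, which include the factor Nfe2l2 and genes of glutathione and thioredoxin metabolism, 9 were tested and none passed, with medians of 0.27 in the DAXX KO and 0.12 in the ATRX KO. Gsr, glutathione reductase, lay at 0.46 (0.38 to 0.55) and 0.21 (0.12 to 0.30), and Txnrd1, a thioredoxin reductase, at 0.13 (0.07 to 0.19) and 0.01 (-0.05 to 0.07). The 6 genes of mitochondrial protein stress had medians of 0.10 and 0.03, with the chaperonin genes Hspd1 and Hspe1 at 0.06 (0.04 to 0.08) and 0.30 (0.26 to 0.35) in the ATRX KO. In the ATRX KO against Wildtype, the whole interval lay above 0 for 8 of the 20 ER genes and below 0 for 5. For the 9 NRF2 genes these counts were 5 and 2, and for the 6 mitochondrial genes 2 and 1. Over all genes tested the shares were 25.4% and 21.3%. In the DAXX KO the counts were 5 and 5, 7 and 1, and 3 and 0, beside 23.7% and 17.1%. Differences between lists were not tested.

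Genes whose levels over the 3 libraries were most like those of the members that fell were found by the distance between their pairs of log2 folds against Wildtype, among 9913 genes with a mean of at least 5 CPM. For Trib3 these were Atrx, at a distance of 0.09, Ntn1, which encodes netrin 1, at 0.14 and Nupr1 at 0.15. For Chac1 they were the ectoenzyme gene Enpp3 at 0.34, Lgals9, which encodes galectin 9, at 0.43 and Vwf, which encodes von Willebrand factor, at 0.66. Atrx is the gene targeted in the ATRX KO. The genes nearest to Chac1 lay farther from it than those nearest to Trib3 did. With 3 libraries the measure rests on a pair of folds per gene, and whether such genes share control was not tested.

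The libraries held 11224100 reads on transcripts in the DAXX KO, 13988376 in the ATRX KO and 13981915 in Wildtype. Atrx had 1800 reads in the ATRX KO and 4582 in Wildtype, a scaled log2 fold of -1.28 (-1.36 to -1.20). Daxx had 623 reads in the DAXX KO and 1125 in Wildtype, a scaled log2 fold of -0.44 (-0.59 to -0.30), and it was also below Wildtype in the ATRX KO, at -0.14 (-0.27 to -0.02). All 8 ESC markers examined were present at 1 CPM or more in each library, and their summed level was 5727 CPM in the DAXX KO, 5812 CPM in the ATRX KO and 5354 CPM in Wildtype. Summed levels of markers of other cells were lower in both knockouts than in Wildtype, although not every marker was. The sums over 8 markers each were 65.3 CPM in the DAXX KO, 142 CPM in the ATRX KO and 269 CPM in Wildtype for primitive endoderm, 35.2, 59.0 and 84.3 CPM for trophoblast, and 7.51, 13.1 and 28.2 CPM for feeder fibroblasts. Most of the endoderm sum came from the matrix genes Col4a1, at 21.2, 79.9 and 117 CPM, and Lama1, at 41.8, 49.1 and 114 CPM. In the ATRX KO against Wildtype the intervals of Gata4 (-0.76 to 0.15) and Gata6 (-1.63 to 0.02) spanned 0. Those of the other 6 endoderm markers lay below 0. At least 1 CPM was reached by 2, 6 and 8 of the 8 primitive endoderm markers, by 5 of 8 trophoblast markers in each library, and by 3, 3 and 5 of the 8 fibroblast markers. Among trophoblast markers Cdx2 had 3 reads in the DAXX KO, 13 in the ATRX KO and 0 in Wildtype, and Eomes had 53, 63 and 68 reads, while Krt8, Krt18 and Krt19 held most of that sum. Of the fibroblast markers, Col3a1, Postn and Lum were at 0 in both knockouts and Lum in Wildtype. Of the others, Sox17 and Hand1 were at 0 in the DAXX KO, Elf5 in the ATRX KO, and Cdx2 and Elf5 in Wildtype. All 3 sums were lowest in the DAXX KO. The part of other cells in the differences of the 10 ATF4 response genes between libraries was not tested.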

How the data were processed

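Polyadenylated RNA of 3 mouse ESC clones was measured, 1 library per genotype. The deposited values are raw counts of reads per transcript or repeat sequence, not normalised, in the idxstats layout. The tools Bowtie 1.1.2 and SAMtools, and the build GRCm38.p4, are those listed per the submitters' processing notes. Alignment settings, strand use and annotation release are not given in the sources used here, so reads shared with copies or with opposite-strand genes can be misplaced.

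Counts of all transcripts of a symbol were added up, giving 24006 symbols from 48843 transcripts. Repeat counts were left out. Scaling used the TMM method of edgeR 4.0.16 in R 4.3.3, with factors of 0.973 for the DAXX KO, 0.990 for the ATRX KO and 1.04 for Wildtype. With 1 library per genotype, 0 residual degrees of freedom remain, and a rule of size took the place of a test: at least 1 CPM in 1 of the 2 libraries compared, and a whole 95% Clopper-Pearson interval of the fold (SciPy 1.17.1) beyond 2-fold. Reads are not independent molecules, so intervals cover counting error only. Medians used a prior count of 1 over genes with a mean of at least 1 CPM. TPM used each transcript's own length. The script was tested on simulated counts.

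The 10 genes, the 9 pathway lists and the 4 marker lists were chosen with earlier results of these data known. Named were all 10 genes and, from each list, the genes past the rule in any comparison, the one with the most reads and the one with the interval bound farthest from 0 against Wildtype. Likeness took the 3 nearest genes, without predicted genes, clone names and pseudogenes. Genes that share at least 50 bases at 95% identity or more with a member were sought with BLAST among 98.9% of the transcripts. Alternatives were total-count and DESeq2 1.42.0 scaling, the most abundant transcript, thinned counts and other low-count filters.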

Additional observations from a re-analysis of the deposited data

How the results depend on the processing

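The members that passed the 2-fold rule were the same under every alternative tried: Chac1 and Trib3 in the ATRX KO against Wildtype, these and Atf5 between the knockouts, and none in the DAXX KO. Over the alternatives the log2 fold in the ATRX KO against Wildtype ran from -2.18 to -2.01 for Chac1, from -1.40 to -1.33 for Trib3 and from -0.74 to -0.66 for Atf4. With scaling by total counts, 7 of 30 member folds left their counting interval, Psat1 in the DAXX KO turned to -0.04, and the medians of the eIF2 list (-0.06 in the DAXX KO and -0.03 in the ATRX KO), of the other stress factors in the DAXX KO (-0.06), and of the ER (-0.02) and mitochondrial (-0.04) lists in the ATRX KO changed sign. The DAXX KO medians came closer to 0 for the 10 genes (0.07, against 0.16), the transporters (0.08, against 0.17), the synthetases (0.02, against 0.12) and the mitochondrial list (0.01, against 0.10), and the synthetase median in the ATRX KO was -0.40, against -0.33. That scaling shifted the median of all genes by -0.09 in the DAXX KO and -0.07 in the ATRX KO. Nupr1 in the ATRX KO against Wildtype was no longer past the rule with thinned counts (-1.33, -1.68 to -0.99), nor Slc1a4 between the knockouts with the most abundant transcript (-1.10, -1.40 to -0.81). A filter of 5 CPM, which tests fewer genes, left 108 of 204 genes that fell in the DAXX KO, 88 of 152 in the ATRX KO, and 64 of 100 that were higher in the ATRX KO than in the DAXX KO. No paired analysis was possible because each genotype had 1 library. Depth limits Ddit3 most, with 44 to 79 reads a library.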

Other observations

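Close relatives of the effector genes were listed beside them. Sesn1, a sestrin that is a known target of p53 and FOXO factors, had 397 reads in the DAXX KO, 447 in the ATRX KO and 285 in Wildtype, with log2 folds of 0.89 (0.67 to 1.11) and 0.72 (0.50 to 0.94) against Wildtype. The paralogue list of 5 genes (Trib1, Trib2, Chac2, Sesn1 and Sesn3) had medians of 0.09 in the DAXX KO and 0.23 in the ATRX KO, and none passed the 2-fold rule. The median in the DAXX KO was -0.06 with thinned counts.

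Some genes of the lists stood higher in the ATRX KO, chosen for mention after their values were seen. Ddit4, an inhibitor of mTORC1 that also responds to p53 and hypoxia, had 520 reads in the DAXX KO, 1316 in the ATRX KO and 889 in Wildtype, a log2 fold of 0.63 (0.51 to 0.76) against Wildtype. Slc43a1, a transporter of large neutral amino acids, had 92, 160 and 104 reads and a log2 fold of 0.69 (0.32 to 1.06). Got1, a cytoplasmic aspartate aminotransferase, stood at 0.42 (0.34 to 0.51) in the ATRX KO and 0.39 in the DAXX KO.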
